A study of Ovis aries and Capra hircus and Bos taurus with 26 samples.

Results

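Trimethylation of lysine 4 of histone H3 (H3K4me3) was compared between sheep and goat liver on the autosomes, one homologous chromosome against the other. The members are the distinct peak intervals that lie on the 26 sheep and 29 goat autosomes in 6 libraries, 163199 intervals of the 197099 that these libraries held on all sequences and of 616400 in the 17 libraries of the series. The libraries were made by chromatin immunoprecipitation and sequencing (ChIP-seq) from the livers of 3 Texel sheep and 3 Yunnan black goats, adult, healthy and 2 to 3 years old, with one antibody against H3K4me3. The tissue was taken directly after death and frozen, so each library averages over the hepatocytes and the other cells of the liver. H3K27ac (acetylation of lysine 27) lists of the same 6 animals and H3K4me3 lists of 3 Holstein cattle, 3 to 4 years old, are used only where they are named. No expression values are part of the lists and no genes were assigned to the intervals, so the label "liver" was not checked against marker genes.

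H3K4me3 is laid down on the first nucleosomes around transcription start sites, mostly by the SET1 and MLL methyltransferase complexes, and is densest at CpG island promoters of genes in use. H3K27ac marks active promoters too, and in addition active enhancers. In liver, broad H3K4me3 is known from promoters of highly used genes, while narrow intervals also occur at weak promoters and some enhancers. Sheep and goats carry largely the same set of chromosome arms, but 6 goat autosomes are joined as 3 large chromosomes in sheep, so sheep 1 was set against goat 1 with 3, sheep 2 against goat 2 with 8, and sheep 3 against goat 5 with 11. The other 23 pairs are one-to-one and are named here by the sheep number.

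The number of autosomal intervals overlapped between the species. Sheep A had 26996 intervals, sheep B 29469 and sheep C 28825. Goat A had 23483, goat B 26952 and goat C 27474. The groups overlapped, since goats B and C lay within the range of the sheep or just below it and goat A alone was low. Sheep averaged 28430 ± 1283 intervals and goats 25970 ± 2169 (mean ± SD of 3 libraries), a log2 difference of 0.13 that did not pass the threshold (two-sided exact permutation test, p = 0.2, where 3 against 3 libraries cannot go below 0.1). Without goat A it was 0.06. For summit rows it was 0.058, for covered length 0.056 and per Mb of span 0.026. The direction depends on what is counted. With all sequences of the lists the difference turned to -0.16 (p = 0.2, exact permutation test). On these lists 21.4% to 28.5% of goat intervals but only 4.77% to 5.68% of sheep intervals lay on unplaced scaffolds.

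The median interval was narrower in every sheep library than in any goat library. The median width was 716.5, 697 and 769 bp in sheep A, B and C, and 797, 785 and 804 bp in goats A, B and C. The groups did not overlap, and the log2 difference was -0.13 (exact permutation test, p = 0.1, the smallest possible). The median fold enrichment was also lower in every sheep (6.74 to 6.93) than in any goat (7.08 to 7.52), and its part in the widths was not tested. Intervals with more than 1 summit, which join neighbouring points of enrichment, made up 35.2%, 32.1% and 31.5% in sheep and 38.6%, 38.0% and 37.0% in goats, again without overlap (difference -4.91 percentage points, exact permutation test, p = 0.1). When only the 20000 strongest intervals of each library were kept, both differences shrank, to -0.02 on the log2 scale (exact permutation test, p = 0.8) and to -3.60 percentage points (p = 0.2), and the groups overlapped.

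The sheep excess lay among intervals under 1000 bp and, for the most part, under 10-fold enrichment. Intervals under 400 bp numbered 6640, 7411 and 5916 in sheep and 4730, 5770 and 5757 in goats, a log2 difference of 0.30 and an excess of 1237 in the means. Intervals of 400 to 1000 bp, the class that holds the medians, differed by 0.18 with an excess of 1468, those of 1000 to 2000 bp by -0.04, and those of 2000 bp or more by -0.04. By fold enrichment over background, as given by the peak caller, the difference was 0.30 below 5-fold, 0.16 from 5 to 10-fold and -0.08 from 10 to 20-fold. From 10 to 20-fold sheep had 6431, 6935 and 6260 intervals and goats 5297, 8012 and 7841. Goat A lay below every sheep there, and goats B and C lay above every sheep. The few intervals of 20-fold or more numbered 57, 66 and 37 in sheep and 10, 71 and 54 in goats, a log2 difference of 0.62 with overlapping groups that turned to -0.26 without goat A. These classes are a description and were not tested one by one.

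Broad intervals of at least 2000 bp were rare in both species. Sheep A, B and C had 367, 532 and 800 of them, and goats A, B and C had 342, 650 and 759. As a share this was 1.98% ± 0.72 for the sheep and 2.21% ± 0.68 for the goats (mean ± SD of 3 libraries), with libraries of both species spread over the same range (exact permutation test, p = 0.8). The difference was -0.23 percentage points. It was -1.53 with a minimum of 1500 bp (exact permutation test, p = 0.4) and -0.007 with 3000 bp. At 2000 bp its sign turned without sheep A (0.08 percentage points) and without goat C (0.05).

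An interval was called recurrent when an interval of another animal of the species covered at least 50% of it. The recurrent share was 93.0%, 89.6% and 88.0% in sheep and 97.0%, 90.3% and 87.4% in goats, with overlapping groups (exact permutation test, p = 0.7). Width separated recurrent from other intervals in both species. Under 400 bp a mean of 69.9% of sheep and 71.9% of goat intervals recurred, while from 1000 to 2000 bp it was 99.0% and 99.3%.

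The share of intervals that carried H3K27ac in the same animal was lower in every sheep than in any goat. An H3K27ac interval covered at least 50% of 56.3%, 49.0% and 54.4% of the H3K4me3 intervals of sheep A, B and C, and of 66.7%, 61.6% and 60.1% in goats A, B and C. The means differed by -9.58 percentage points (sheep minus goat, exact permutation test, p = 0.1). The means kept this order within each width class, from 30.9% against 42.7% below 400 bp to 68.5% against 74.7% between 1000 and 2000 bp. At 2000 bp or more they were lower again, 49.5% against 57.9%, and the part of width itself in this fall was not tested. The libraries were apart only below 400 bp. The H3K27ac lists were themselves shorter in every sheep (38317, 35693 and 39846 autosomal intervals) than in any goat (40457, 48735 and 43705), and the part of list length in this difference was not tested. Among the 20000 strongest intervals of each library the difference was -3.62 percentage points and the groups overlapped (exact permutation test, p = 0.3).

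**Figure D1:**
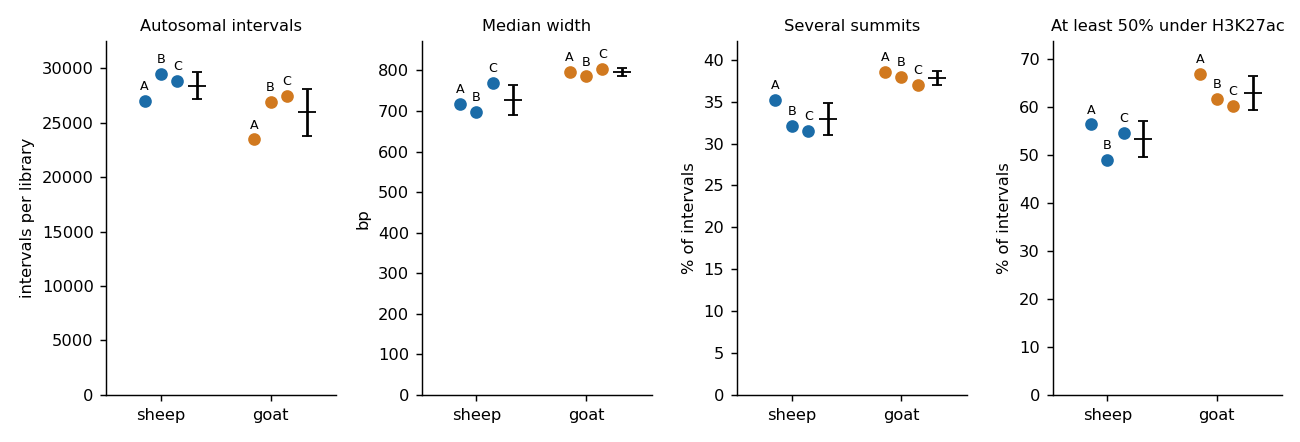
Each panel shows 1 measure for the 3 sheep and 3 goat H3K4me3 libraries (points, with animal letters), with the mean and SD at the right of each group: intervals per library, median width in bp, percent of intervals with several summits and percent covered over at least 50% by H3K27ac. The groups overlap in number (23483 to 27474 in goats, 26996 to 29469 in sheep) and are apart in the other 3 measures.

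The order of chromosomes by density was nearly the same in both species. Since no genome sequence was used, length was taken as the span, the largest interval end of either mark on a chromosome, which is a lower bound of the assembled length. The spans summed to 2654 Mb in sheep and 2464 Mb in goats, a ratio of 1.08. Sheep 11, 24 and 14, with 24.7, 21.6 and 20.9 intervals per Mb of span (means of 3 libraries), were the densest, and their goat homologues had 23.4, 20.8 and 21.5. Sheep 10, 16 and 6 were the sparsest, with 6.60, 6.61 and 7.10 intervals per Mb against 6.42, 6.61 and 6.62 in goats. Over the 26 pairs the densities of the species were correlated with Pearson's r = 0.994 and Spearman's rho = 0.985, a description across chromosomes that share libraries and are no replicates.

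**Figure D2:**
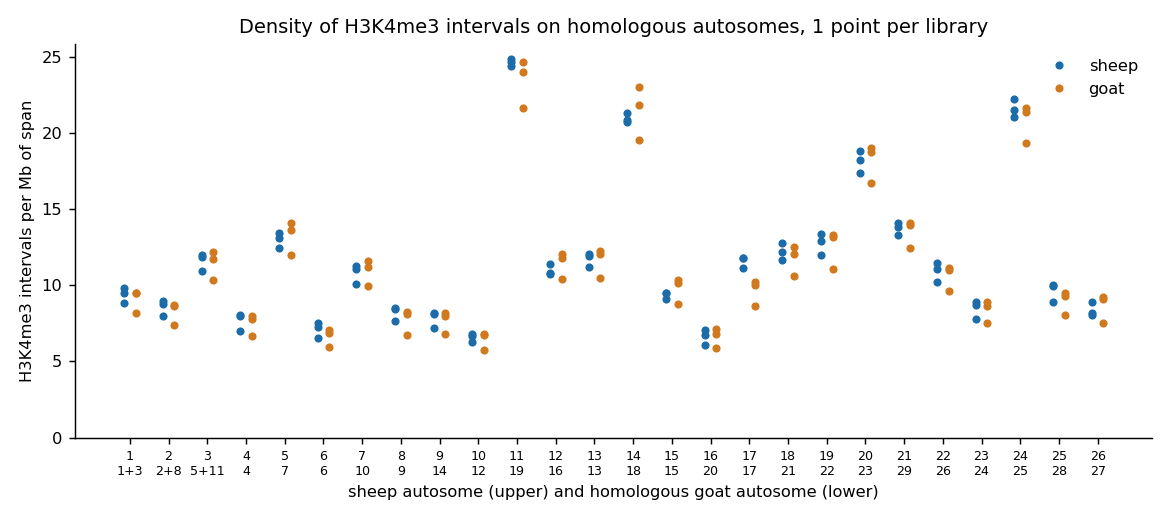
Intervals per Mb of span (y axis) for each homologous pair (x axis, sheep number above and goat number below), with 1 point per library. Sheep and goat points lie at like heights in most pairs, from 6.42 to 24.7 per Mb in the means, while in pair 17 all 3 sheep points lie above all 3 goat points.

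Chromosomes known to be rich in genes held more than 3 times as many intervals per Mb as those known to be poor in them. The gene-rich list (sheep 11, 14 and 24) had 22.40 intervals per Mb in sheep and 22.01 in goats, and the gene-poor list (sheep 10 and 23) had 7.37 and 7.24. Sheep 20, which carries the major histocompatibility complex with its antigen-presenting genes, had 18.1 and 18.2 per Mb. Sheep 6, with the albumin gene family that liver uses heavily and the casein genes of the mammary gland, had 7.10 and 6.62 per Mb. The fused chromosomes (sheep 1, 2 and 3) had 9.78 per Mb against 9.51 on their goat counterparts.

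The mean interval number was higher in sheep in 26 of 26 pairs, with log2 differences from 0.04 on pair 12 to 0.49 on pair 17 and a median of 0.12. In 5 pairs every sheep library was above every goat library, and the opposite order occurred in 0 pairs. Much of this rested on goat A, the library with the fewest autosomal intervals. Without it the median fell to 0.05, the mean was higher in sheep in 23 of 26 pairs, and pairs 11 (1503 against 1521), 12 (929 against 945) and 14 (1489 against 1509.5) turned. After a limma fit across the 26 pairs with Benjamini-Hochberg adjustment, 1 pair (pair 17) passed the threshold of 0.05, which is 3.85% of those tested, and 7 pairs had an unadjusted p under it. With the animal letter as a replicate block 15 pairs passed, all higher in sheep. All pairs share the total of each library, and the main fit gave every pair the same SE (0.086), so these counts are not of separate findings. Per Mb of span 0 pairs passed in limma, with 1 at an unadjusted p under 0.05. The span was longer in sheep in 25 of 26 pairs (ratios of 0.975 to 1.17), and the log2 ratio of spans was correlated over the pairs with the log2 difference in number (r = 0.718, rho = 0.737, and r = 0.664 without pair 17). This correlation is a description, and whether longer assembled sequence accounts for the higher numbers was not tested.

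**Figure D3:**
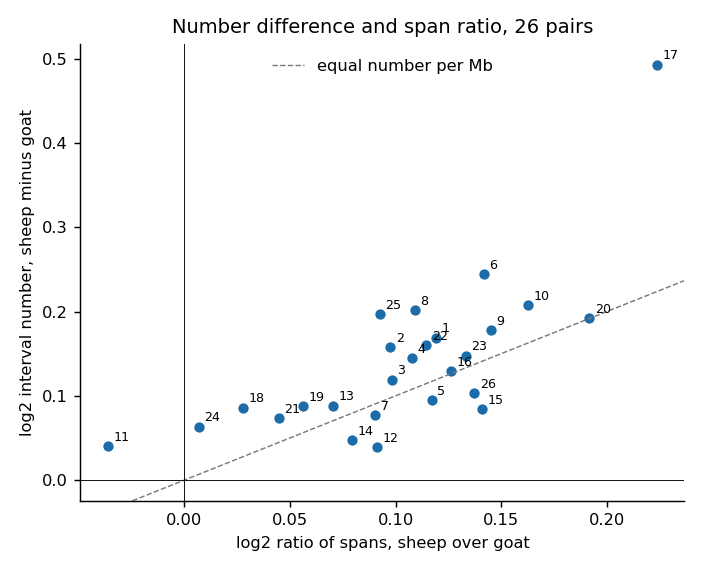
Log2 ratio of spans (x axis, sheep over goat) against the log2 difference in interval number (y axis, sheep minus goat) for 26 pairs, labelled by sheep number. The dashed line marks equal numbers per Mb, the horizontal and vertical lines mark 0, and pair 17 lies farthest above the dashed line at 0.49 on the y axis.

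To set aside the total number of each library, the share of a library's autosomal intervals on each chromosome was compared. In limma 13 of 26 pairs (50%) passed an adjusted p of 0.05, with 6 higher in sheep (pairs 6, 8, 10, 17, 20 and 25) and 7 lower (pairs 11, 12, 13, 14, 18, 21 and 24). The lower ones include all 3 of the gene-rich list, a direction that turned for pairs 11 and 24 (and for pairs 18 and 21 outside that list) when shares were taken relative to span, and of the gene-poor list pair 10 was higher while pair 23 did not pass. Apart from pair 17 the changes were small, between -0.09 and 0.11 on the log2 scale. The number of calls was 4 without sheep B, 7 without sheep C, 5 without goat A and 7 without goat B, and 6 at a q threshold of 1e-05. With the replicate block it was 17, with 7 higher and 10 lower in sheep.

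Shares on pair 17 were 3.41%, 3.31% and 3.38% in sheep and 2.61%, 2.68% and 2.57% in goats, far apart compared with the spread within either species. The log2 difference was 0.36 ± 0.02 (SE; limma adjusted p = 3.8e-08). Next came pair 6, with 3.15%, 3.30% and 3.26% in sheep and 2.964%, 2.998% and 3.028% in goats. Its log2 difference was 0.11 ± 0.02 (SE; limma adjusted p = 0.0026), and the groups did not overlap.

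Pair 10 had shares of 2.271%, 2.246% and 2.258% in sheep and 2.12%, 2.16% and 2.15% in goats, a log2 difference of 0.07. Pairs 8 and 25 followed with 0.07 and 0.06. At the other end, pair 12 had 3.36%, 3.28% and 3.17% in sheep and 3.52%, 3.47% and 3.48% in goats, a fall of 0.09 on the log2 scale (limma adjusted p = 0.0078). Pair 11 had 5.51%, 5.10% and 5.26% in sheep against 5.75%, 5.56% and 5.62% in goats, with every goat higher and a log2 difference of -0.09. The remaining pairs of the 5 lowest, 14, 24 and 21, differed by -0.09, -0.07 and -0.06.

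Dividing each share by the chromosome's share of the summed span left 5 of 26 pairs past the threshold in limma. Pairs 17 (log2 0.24), 25 (0.08) and 6 (0.08) were higher in sheep, and pairs 12 (-0.08) and 15 (-0.08) were lower. Of the 13 called pairs, 5 changed sign on this scale without passing, namely the gene-rich pairs 11 (0.05) and 24 (0.03) with pairs 18 (0.03), 21 (0.003) and 20 (-0.03). Pair 14 kept its direction at -0.06 without passing, and the gene-poor pair 10 fell to 0.02 (limma adjusted p = 0.42). For 2 of the 3 gene-rich pairs the direction therefore depends on whether length enters the scale.

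**Figure D4:**
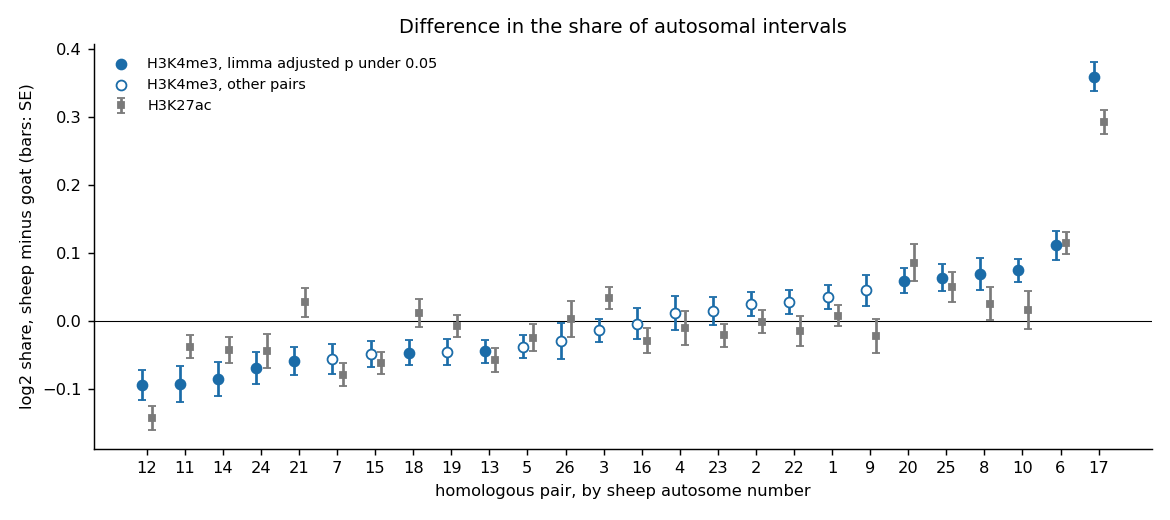
Log2 difference in the share of autosomal intervals (y axis, sheep minus goat, bars are SE) for the 26 pairs in order of the H3K4me3 difference (x axis, sheep number). Circles are H3K4me3, filled where the limma adjusted p was under 0.05 (13 pairs), and squares are H3K27ac, with pair 17 at 0.36 and 0.29 far above all others.

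Some of these differences had a counterpart in H3K27ac, a mark measured in other libraries of the same animals on the same assemblies. For H3K27ac 7 of 26 pairs (26.9%) passed in limma, 3 higher and 4 lower in sheep. Of these, 5 (pairs 6, 12, 13, 17 and 20) were also called for H3K4me3 in the same direction, which is 71.4% of the H3K27ac calls and 38.5% of the H3K4me3 calls, and 0 were called in opposite directions. Log2 differences were 0.29 for H3K27ac and 0.36 for H3K4me3 on pair 17, 0.11 for both on pair 6, and -0.14 and -0.09 on pair 12.

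Whether a chromosome's share differed more in one mark than in the other was tested by subtracting the log2 shares within each animal. In limma 0 of 26 pairs passed (0%), with 3 at an unadjusted p under 0.05 (pairs 9, 17 and 21). The value on pair 17 was 0.07 ± 0.03 (SE; limma adjusted p = 0.23). Over the 26 pairs the differences of the marks were correlated with r = 0.887 and rho = 0.714 (r = 0.726 without pair 17), a description across pairs that share animals and assemblies.

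The mean of the log2 median widths was lower in sheep on 26 of 26 pairs. The difference passed a limma adjusted p of 0.05 in 16 of them (61.5%). Widths were not set relative to each library's own median, so the pairs share the difference between whole libraries (exact permutation test, p = 0.1). The fit also gave every pair the same SE (0.051), and the 16 are not separate findings. Pair 17 led with medians of 636, 649.5 and 707.5 bp in sheep and 818, 801 and 842 bp in goats, a log2 difference of -0.31. Pairs 22 and 6 followed with -0.24 and -0.23. The smallest differences were those of the gene-rich pairs 24, 14 and 11, with -0.04, -0.04 and -0.05, none of which passed. The calls numbered 9 without sheep B, 26 without sheep C, 10 without goat A and 10 without goat C, 18 with the replicate block, and 0 among the 20000 strongest intervals of each library.

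Pair 17 stood apart from all other pairs. The libraries held 921, 974 and 974 intervals on sheep 17 and 613, 723 and 707 on goat 17, where every sheep library exceeded every goat library. Its excess of 275.3 intervals was 11.2% of the whole sheep excess on autosomes, although sheep 17 held 3.36% of the sheep intervals. Without goat A the excess was 241.3 intervals, or 19.8% of a smaller total of 1217. The span of sheep 17 was 82.6 Mb and that of goat 17 was 70.7 Mb, the highest ratio of any pair at 1.17, and per Mb the means were 11.6 and 9.63 intervals. In cattle, where chromosome 17 spanned 73.1 Mb, the 3 libraries held 811, 757 and 797 intervals, between those of the other species. As a share of the chromosomes with a cattle counterpart this was 3.32%, beside 3.57% in sheep and 2.77% in goats.

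The excess was concentrated towards one end. Read from the start of the sheep chromosome, with the goat chromosome turned around, the last 10% of sheep 17 held 280, 299 and 291 intervals and that of goat 17 held 143, 159 and 170. This gap of 132.7 intervals between the means was the largest of the 230 such segments of the 23 one-to-one pairs, and the next largest was 55, on pair 20. The terminal 5 Mb held 238, 254 and 242 intervals in sheep, 116, 131 and 140 in goats and 214, 198 and 211 in cattle. From 5 to 10 Mb the order was the other way, with 77, 85 and 90 in sheep, 104, 110 and 116 in goats and 75, 67 and 74 in cattle. Goats had the fewest intervals of the 3 species in the first window and the most in the second, without overlap between libraries. Without an alignment it was not determined which stretches of the windows correspond.

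Terminal sheep intervals were recurrent and not unusually strong. Over the last 10 Mb of sheep 17, 92.6% to 94.3% recurred in another sheep, with a median fold enrichment of 5.73 to 6.01 against 6.77 to 7.16 on the rest of the chromosome. Their median width was 607, 626 and 655 bp, below the 826, 851 and 869 bp of the goat end and the 675 to 775 bp of the cattle end. H3K27ac had a smaller gap in the terminal 5 Mb, with 227, 224 and 239 intervals in sheep and 163, 181 and 181 in goats, a difference of 55 between the means beside 115.7 for H3K4me3. From 5 to 10 Mb sheep had 111, 97 and 118 H3K27ac intervals and goats 171, 207 and 183, a difference of -78.3 between the means beside -26 for H3K4me3. Over the last 10 Mb the H3K27ac libraries overlapped, with 338, 321 and 357 intervals in sheep and 334, 388 and 364 in goats, whereas H3K4me3 had 315, 339 and 332 in sheep and 220, 241 and 256 in goats.

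Interval density was also used to set the direction in which homologous chromosomes are numbered. Each of the 23 one-to-one pairs was cut into 50 equal bins, and the sheep profile was compared with the goat profile in both directions. The better direction gave Pearson's r from 0.467 on pair 11 to 0.965 on pair 9, with a median of 0.775 and 18 pairs at 0.7 or above, whereas the other direction gave -0.407 to 0.367. By the better r, goat chromosomes ran in the direction of the sheep in 11 pairs and reversed in 12. Pair 12 was the least clear, with r = 0.516 in the same direction and 0.367 reversed. Between animals of one species r was at least 0.956 on every chromosome. These values are descriptions over bins of the same libraries.

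The best matches were pair 9 (r = 0.965, goat 14 reversed), pair 13 (0.959, same direction) and pair 6 (0.941, same direction). Pairs 11, 12 and 20 matched least, with 0.467, 0.516 and 0.529, so position by percent of span is a loose guide there. The lowest difference of any 10% segment, -64.3 intervals, lay on pair 20, where the seventh segment held 107, 117 and 99 intervals in sheep and 161, 181 and 174 in goats. It lay 3 segments from the excess of 55 at the end of the same chromosome. Altogether the sheep mean was higher in 167 of the 230 segments.

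**Figure D5:**
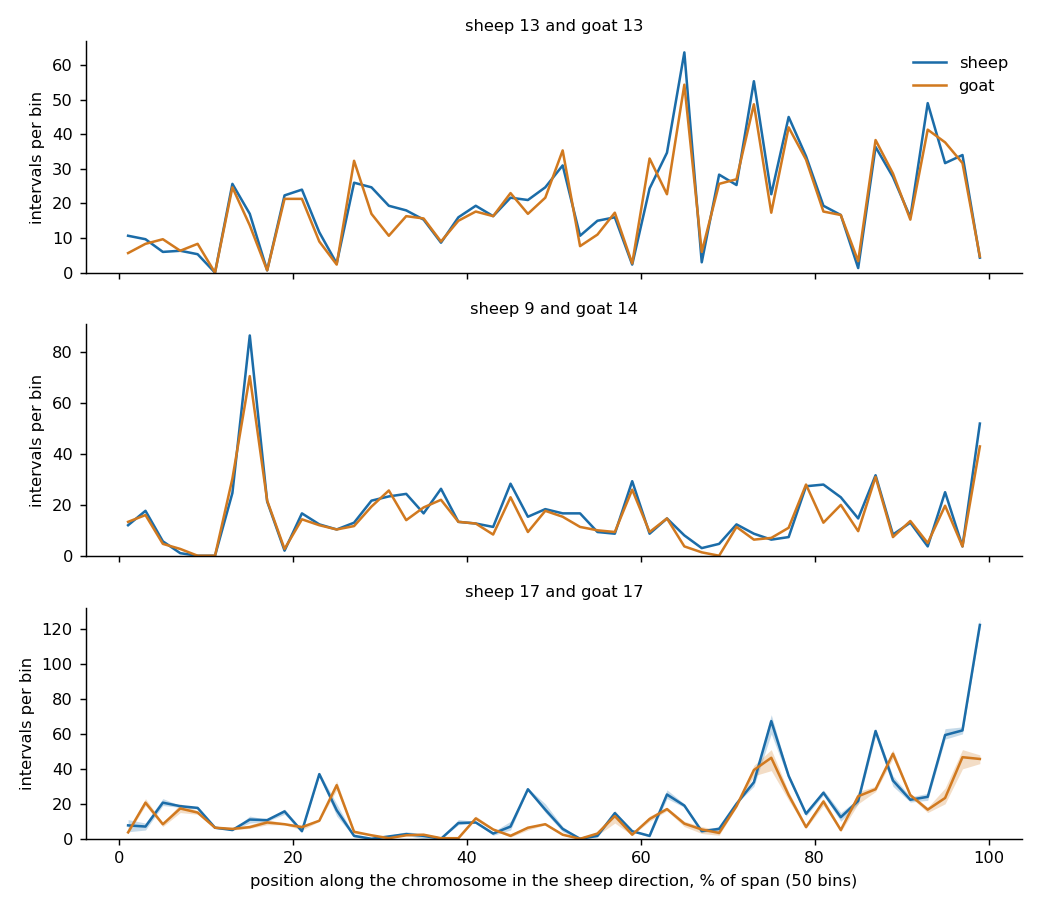
Mean intervals per bin (y axis) over 50 equal bins of the span (x axis, in percent, goat turned to the sheep direction) for pairs 13, 9 and 17, in sheep (blue) and goat (orange), with the range of the 3 libraries shaded for pair 17. The curves of pairs 13 and 9 follow each other closely (r = 0.959 and 0.965), and those of pair 17 part most in the last bin.

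The same profiles placed the goat chromosomes within the fused sheep chromosomes. Of 8 possible orders and directions for each, the best for sheep 1 was goat 3 followed by goat 1, both in the same direction (r = 0.783, next best 0.565). Sheep 2 was matched best by goat 8 and then goat 2, both reversed (r = 0.774, next best 0.524), and sheep 3 by goat 11 reversed and then goat 5 in the same direction (r = 0.856, next best 0.451). With the border set at the share of the goat spans, the part of sheep 1 matched to goat 3 held 1516, 1644 and 1599 intervals and goat 3 held 1325, 1502 and 1517. The part matched to goat 1 held 1145, 1318 and 1257 intervals against 948, 1140 and 1122. None of the fused pairs passed the limma threshold in share, with log2 differences of 0.04, 0.02 and -0.01 on sheep 1, 2 and 3. Without sheep A, pair 1 passed at 0.04 (limma adjusted p = 0.048), as it did with a variance trend (limma adjusted p = 0.041).

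Regions found in at least 2 animals of a species and merged (consensus regions) numbered 26736 in sheep and 24753 in goats, which was 10.07 and 10.05 per Mb of span. All 3 animals shared 84.6% and 85.1% of them. H3K27ac consensus regions covered at least 50% of 67.2% of the sheep and 73.9% of the goat regions, and 1014 and 988 were at least 2000 bp wide.

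Many of the widest consensus regions lay at a similar percent of span on homologous chromosomes. No alignment was made, so whether such regions are homologous was not tested. Coordinates are 1-based and refer to the assemblies Oar_rambouillet_v1.0 (sheep) and ARS1 (goat), and whether the regions lie in a gene was not analysed here. The widest sheep region was 3740 bp on chromosome 18 (59681032 to 59684771), at 84.4% of the span, and the third widest, 3587 bp, lay beside it (59718782 to 59722368). These are merged widths, and the intervals of single sheep in the first region ranged from 1147 to 3730 bp. A goat region of 3062 bp on chromosome 21 (58691044 to 58694105), the 26th widest of that species, lay at 84.6%. The second widest of each species also lay near each other in percent of span. They were 3603 bp on sheep 5 (78442408 to 78446010) at 66.7% and 3611 bp on goat 7 (35366958 to 35370568) at 67.4% in the sheep direction. All 3 sheep and all 3 goats had an interval in these regions, with fold enrichments of 5.29 to 6.05 in sheep and 6.09 to 6.14 in goats. Their widths ranged from 2028 to 3420 bp in sheep and from 1058 to 3611 bp in goats.

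The widest goat region was 3851 bp on chromosome 14 (35917254 to 35921104) at 62.1%, with intervals of 1451 to 3785 bp in single goats, and a sheep region of 2889 bp on chromosome 9 (65413285 to 65416173), 53rd in order, lay at 62.5%. The third goat region, 3432 bp on chromosome 19 (40319611 to 40323042), had a sheep region of 3387 bp on chromosome 11 (22506739 to 22510125) within 1.42% of the span. The profiles of this pair matched least, so percent of span is a loose guide here. Of the 100 widest regions of each species, 78 sheep and 77 goat regions lay on one-to-one pairs. Within 2% of the span, 40 of the 78 sheep regions (51.3%) and 41 of the 77 goat regions (53.2%) had a region of the other species' list. In the other direction, which the profiles matched less well, it was 8 of 78 and 8 of 77 (10.3% and 10.4%). The direction had been chosen by the better match of the same libraries, so the reversed values are no independent control.

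The strongest consensus regions, ranked by the poorest rank of their −log10 q over the 3 animals, were matched in the same way. Within 2% of the span, 22 of 61 sheep regions (36.1%) had a region among the 100 strongest of the goats. For the goat regions it was 21 of 73 (28.8%). In the other direction, again no independent control, it was 4 and 5. Of these 100, 96 in sheep and 99 in goats were covered by H3K27ac, compared with 45 and 49 of the 100 widest. Cover was counted as a share of each region's own width, so a wider region needed a longer stretch of H3K27ac. The narrowest of the widest regions had 2725 bp in sheep and 2736 bp in goats, and the narrowest of the strongest had 436 and 585 bp. The part of width in this contrast was not tested. The leading sheep regions were a pair of neighbours on chromosome 1 (3018609 to 3019149 and 3017766 to 3018407), with fold enrichments of only 8.996 to 9.683 and 8.996 to 9.494. Both had the same lowest fold and the same widest interval, 1426 bp. This points to a single interval over both in 1 animal, so their ranks are not independent. The third, on chromosome 25 (4420143 to 4420979), had 21.5 to 23.1-fold enrichment.

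The leading goat regions lay at chromosome ends. The first, 1547 bp on goat 19 (2506 to 4052), had fold enrichments of 6.20 to 8.06, the second on goat 15 (81903022 to 81903606) had 15.65 to 17.995, and the third on goat 7 (108431189 to 108432186) had 8.76 to 9.44. By the profiles the end of goat 15 corresponds to the start of sheep 15. A sheep region there (26976 to 28305), seventh in order of strength, lay within 0.03% of the span. For the regions on goat 19 and goat 7 the nearest of the 100 strongest sheep regions lay 4.08% and 5.42% of the span away, and for the region on sheep 25 the nearest of the goat list lay 47.6% away. Within 100 kb of a chromosome end were 6 of the 100 strongest goat regions and 4 of the 100 strongest sheep regions, compared with 0.626% and 0.482% of all consensus regions. Sequence at assembly ends was not examined, and its part in these regions was not tested.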

How the data were processed

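ChIP-seq peak lists of 6 H3K4me3 libraries (3 sheep, 3 goats) were analysed, with the H3K27ac lists of the same animals and 3 cattle H3K4me3 lists for description. Per the methods and labels, the authors trimmed reads with Trim Galore 0.4.0, aligned them with BWA 0.7.17 to Oar_rambouillet_v1.0 (sheep) and ARS1 (goats), removed duplicates with Picard 2.25.0, drew a subsample and ran MACS2 2.1.1 for narrow peaks at q under 0.01, giving one list per library. The labels of all samples name only the cattle build, and the sequence names in the lists are those of each species' own assembly. The paper describes input libraries as controls and subsampled them too. Whether they served as background in peak calling is not stated in the sources used here. The deposited lists hold a fold enrichment (a ratio to background) and −log10 p and q values, which served to rank, filter and describe intervals. They hold no read numbers, so the depth was not measured and no counting interval is given.

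Rows of one interval (one per summit) were joined. Intervals on autosomes were counted per homologous pair, and log2 number, log2 share and log2 median width were fitted with limma 3.58.1 (R 4.3.3, lmFit and eBayes) over 26 pairs, with Benjamini-Hochberg adjustment over all 26. Values per library were compared by two-sided exact permutation over 20 arrangements. The libraries come from separate animals. A fitted fall in one share raises the others, as shares sum to a whole. Overlap code gave the same intervals as bedtools 2.31.1 in 6 comparisons. With shares simulated for 26 pairs, 6 of them changed by 0.1 on the log2 scale and an SD of 0.0256 assumed for every pair, limma recovered 98.2% of the changes and called 1.3% of the other pairs. The simulated pairs were drawn independently of each other, whereas real shares sum to a whole within a library. These rates therefore do not describe the real lists. Scripts used Python 3.11.15, numpy 2.4.6, pandas 2.3.3, scipy 1.17.1 and matplotlib 3.10.9.

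The letters A, B and C come from the sample titles and name different animals in each species. Deviations of log2 shares from the species means nevertheless correlated between same-lettered libraries (0.51, 0.30 and 0.12), and the fit with letter as a replicate block is therefore given beside the counts of called pairs that it changes.

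Named were the 5 highest and 5 lowest pairs in share, the 3 densest and 3 sparsest sheep chromosomes, 5 chromosome lists, and the 3 strongest and 3 widest consensus regions per species. Members, pairs and lists were chosen with earlier results of these data known. Alternatives were a q threshold of 1e-05, every summit, merging within 500 or 5000 bp, the 20000 strongest intervals, covered length, other width and overlap limits, a variance trend, all sequences and leaving out each library. Values per Mb of span, the share over the share of span, and leaving out pair 17 were added after seeing the data. Sex chromosomes and genes were not analysed here.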

Additional observations from a re-analysis of the deposited data

Results flagged for a closer look

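Unplaced scaffolds, which enter the comparisons above only in the total over all sequences, held H3K4me3 intervals in every sheep and goat library, with a mean of 1604 in sheep and 8777 in goats. They were 5.19% ± 0.46 of all intervals of the sheep and 25.1% ± 3.6 of those of the goats (mean ± SD of 3 libraries), with 1679, 1643 and 1490 intervals in sheep A, B and C and 8000, 7354 and 10977 in goats A, B and C. These intervals were narrow, with median widths of 330, 336 and 364 bp in sheep and 322, 320 and 325 bp in goats. In goats, 525 to 582 of them lay on scaffolds with intervals beyond 1 Mb, and in sheep 35 or 36. Outside autosomes and unplaced scaffolds, sheep libraries had 877 to 934 intervals on other assembled sequences and goat libraries 6 to 8. Which chromosomes, autosomes or sex chromosomes, the unplaced goat sequence belongs to was not tested.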

How the results depend on the processing

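Of 41 alternative counts of pairs called in number, share or width, 25 stayed within 1.5 times the main count, and the contrast of the marks gave 0 in each of its 11 alternatives. Of 70 alternative differences by exact permutation 64 kept their sign, and none could pass the threshold, as p could not go below 0.1. Among the 20000 strongest intervals the median width difference kept its sign but shrank to -0.02 on the log2 scale. Chromosome shares of pairs 6, 12 and 17 passed in limma under all 16 settings, the main one included. The log2 difference of pair 6 fell from 0.111 to 0.0517 for covered length and to 0.0602 among the 20000 strongest intervals. The number of pairs called in interval number was 1, but 15 with the replicate block, 1 to 2 without single libraries, 0 for covered length and 0 per Mb of span. Calls in share were 13, with 4 to 18 without single libraries, 6 at a q threshold of 1e-05 and 5 per share of span. Calls in width were 16, with 9 to 26 without single libraries and 0 among the 20000 strongest intervals. The cause was not tested for any of these. The replicate block gave 17 calls in share and 18 in width. The total number turned to -0.16 with all sequences. Without single libraries the broad share difference ranged from -0.628 to 0.0801 percentage points and the recurrence difference from -8.32 to 5.71, positive without any one goat, as 2 animals give fewer chances to recur. Per share of span the log2 shares of pairs 11 (0.0506), 18 (0.0325), 20 (-0.0253), 21 (0.00319), 23 (-0.011) and 24 (0.0308) turned, as did pair 19 (0.00602). Pairs 16 and 23, both near 0, changed sign elsewhere too. Pair 16 went to 0.0287 and 0.0321 with intervals merged within 500 and 5000 bp, to 0.00792 for summit rows, to -0.102 among the 20000 strongest intervals, where it passed (limma adjusted p = 0.0031), and from -0.0241 to 0.0182 without single libraries. Pair 23 went to -0.0115 for covered length, -0.00109 for summit rows and -0.0308 among the strongest 20000. With 3 animals a group and no read numbers, differences within the spread between libraries could not be resolved.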
